A study of Homo sapiens with 8 samples.

Results

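The transcripts of 7 secreted growth factor genes, *KITLG*, *BDNF*, *FGF2*, *FGF5*, *VEGFC*, *MDK* and *CSF1*, were examined in A375 cells, an established human melanoma line, with and without serum. The genes were taken by name, as factors that a melanoma cell could make for itself, and all 7 were found among the 58051 genes counted. Wild-type cells of 4 lines, WT1 to WT4, were each kept for 12 h in DMEM with 10% fetal bovine serum (FBS) or in DMEM without FBS, which gave 4 libraries per condition and 1 per line and condition. The labels name no other allele or agent, and all cells had been grown in medium with serum beforehand. How the 4 wild-type lines were derived from A375 is not given in the sources used here, and the count files of WT4 carry another line name, so the identity of that line rests on its label. Between 29759279 and 73341551 reads were counted on genes per library, and reads that aligned to several places, which the authors did not count, made up 22.7% and 16.8% in the serum libraries of WT1 and WT2 and 5.73% to 10.1% in the other 6 libraries. Of 9 melanocyte and melanoma markers, 4 were at or above 1 CPM, a count scaled to library size, in every library. These were *MITF*, the master regulator of the melanocyte lineage, *S100B*, *S100A1* and *PAX3*. *PMEL* (0.190 to 0.943 CPM), *MLANA* (0.711 to 1.44 CPM) and *DCT* (0.0711 to 2.90 CPM) were below 1 CPM in some or all libraries, and *TYR* reached at most 0.0524 CPM. *SOX10*, a neural crest factor, was listed at 0 in every library. Whether its transcript was absent or was missed in the counting was not tested. The 9 markers summed to 75.2 to 90.6 CPM with serum and 74.2 to 96.8 CPM without. Summed fibroblast markers were at 6.31 to 10.3 CPM over all libraries, endothelial markers at 0.421 to 1.87 CPM and immune markers at 0.289 to 0.950 CPM, and epithelial markers, nearly all *KRT14*, at 11.7 to 21.7 CPM. Single markers differed between the conditions: *MITF* fell from 40.2 ± 3.89 to 33.1 ± 2.58 CPM (edgeR's adjusted p = 0.0496, Benjamini-Hochberg adjusted), *S100A1* rose from 3.02 ± 0.0791 to 5.42 ± 0.942 CPM (0.00605) and *PDGFRA*, on the fibroblast list, rose from 0.709 ± 0.197 to 2.39 ± 1.17 CPM (0.00767), and their part in the other results was not tested.

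Secreted growth factors act by binding receptors on the cell surface, and a cell that makes both a factor and its receptor can stimulate itself, which is called autocrine signaling. *KITLG* encodes stem cell factor, the ligand of the receptor tyrosine kinase KIT on which melanocytes depend, and *CSF1* encodes macrophage colony-stimulating factor, the ligand of CSF1R. BDNF is a neurotrophin that signals through TRKB (*NTRK2*) and the low-affinity receptor p75 (*NGFR*). FGF2 and FGF5 are fibroblast growth factors, VEGFC drives lymphatic vessel growth through VEGFR3 (*FLT4*), and midkine (*MDK*) is a heparin-binding factor. FGF2 is known as an autocrine factor of melanoma cells.

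*KITLG* and *BDNF* were the members whose levels passed the test of serum withdrawal without regard to line, so their start regions are shown. These are RefSeq windows on GRCh38.p14, from 250 bases before to 50 bases after an annotated start, and 5 of the 7 members, all but *MDK* and *CSF1*, matched an entry. Capitals mark the TATAAA in the only *KITLG* window (chr12:88580422-88580721, minus strand), the FOXO motif GTAAACA in the first of the 5 *BDNF* windows (chr11:27721981-27722280, minus strand) and the E-box CACGTG in the second (chr11:27720730-27721029, minus strand), each read 5′ to 3′ on the strand of the gene.
KITLG window 1: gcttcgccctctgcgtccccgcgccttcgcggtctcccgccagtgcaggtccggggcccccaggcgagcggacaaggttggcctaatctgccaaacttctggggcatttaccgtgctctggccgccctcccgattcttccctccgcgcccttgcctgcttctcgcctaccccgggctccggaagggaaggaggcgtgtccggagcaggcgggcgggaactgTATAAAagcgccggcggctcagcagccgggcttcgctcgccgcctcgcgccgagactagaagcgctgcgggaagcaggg
BDNF window 1: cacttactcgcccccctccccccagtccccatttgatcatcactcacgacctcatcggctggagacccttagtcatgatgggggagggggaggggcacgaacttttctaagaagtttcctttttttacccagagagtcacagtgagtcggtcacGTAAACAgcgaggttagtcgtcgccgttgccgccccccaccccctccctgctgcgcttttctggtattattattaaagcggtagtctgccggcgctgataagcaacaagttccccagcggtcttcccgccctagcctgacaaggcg
BDNF window 2: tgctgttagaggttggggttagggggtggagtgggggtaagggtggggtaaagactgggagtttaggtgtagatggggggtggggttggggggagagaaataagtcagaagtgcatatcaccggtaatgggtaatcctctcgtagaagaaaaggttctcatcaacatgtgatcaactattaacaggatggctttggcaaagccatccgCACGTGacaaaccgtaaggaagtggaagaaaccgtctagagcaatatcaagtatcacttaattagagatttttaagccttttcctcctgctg
The first base of the motif lay 29 bases before the start in *KITLG*, 96 before the first *BDNF* start and 42 before the second. Among the 35116 windows of the table, searched on both strands, TATAAA was in 11.5%, GTAAACA in 3.42% and CACGTG in 7.26%. The CRE TGACGTCA (1.85% of windows) and the AP-1 motif TGACTCA or its reverse complement TGAGTCA (4.95%) were in no window of these 5 genes. The second of the 2 *FGF5* windows held overlapping copies of TATAAA, 1 on each strand, and the other windows of *BDNF*, *FGF2*, *FGF5* and *VEGFC* held none of the motifs searched. *KITLG*, *FGF2*, *VEGFC* and the first *FGF5* window had GC contents of 67.0% to 76.3%, against 41.7% to 61.7% in the *BDNF* windows. Which starts were used cannot be read from counts per gene.

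The 7 genes spanned a wide range of levels. To compare genes, values scaled to merged exon length as well as library size (RPKM) were computed, and the median of 17425 expressed genes was 2.75 RPKM with serum and 2.93 RPKM without. With serum, *MDK* was highest at 9.38 ± 2.08 RPKM (SD, n = 4), followed by *FGF2* at 5.32 ± 1.43, *VEGFC* at 2.41 ± 1.43, *CSF1* at 1.80 ± 0.55, *KITLG* at 1.47 ± 0.31, *BDNF* at 0.475 ± 0.246 and *FGF5* at 0.0377 ± 0.0288 RPKM. Only *MDK* and *FGF2* exceeded that median in both conditions, and *MDK* ranked at 4651 with serum and at 3577 without. Without serum the order was *MDK*, *FGF2*, *CSF1*, *VEGFC*, *KITLG*, *BDNF* and *FGF5*, with means of 12.1, 3.44, 2.39, 1.87, 0.932, 0.117 and 0.0762 RPKM. The ranges over lines did not overlap between *MDK* and *FGF2* or between *KITLG* and *BDNF* in either condition, or between *BDNF* and *FGF5* with serum, and the ranges of the other neighbours overlapped. *CSF1* and *VEGFC* changed places between the conditions, but each was above the other in 2 of the 4 lines with serum and again without, so their order is not resolved. The mean of *MDK* was 1.76 times that of *FGF2* with serum and 3.52 times without. With the longest transcript's length in place of merged exons, *MDK* was at 15.3 RPKM with serum, *CSF1* at 2.35 and *BDNF* at 0.771.

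**Figure D1:**
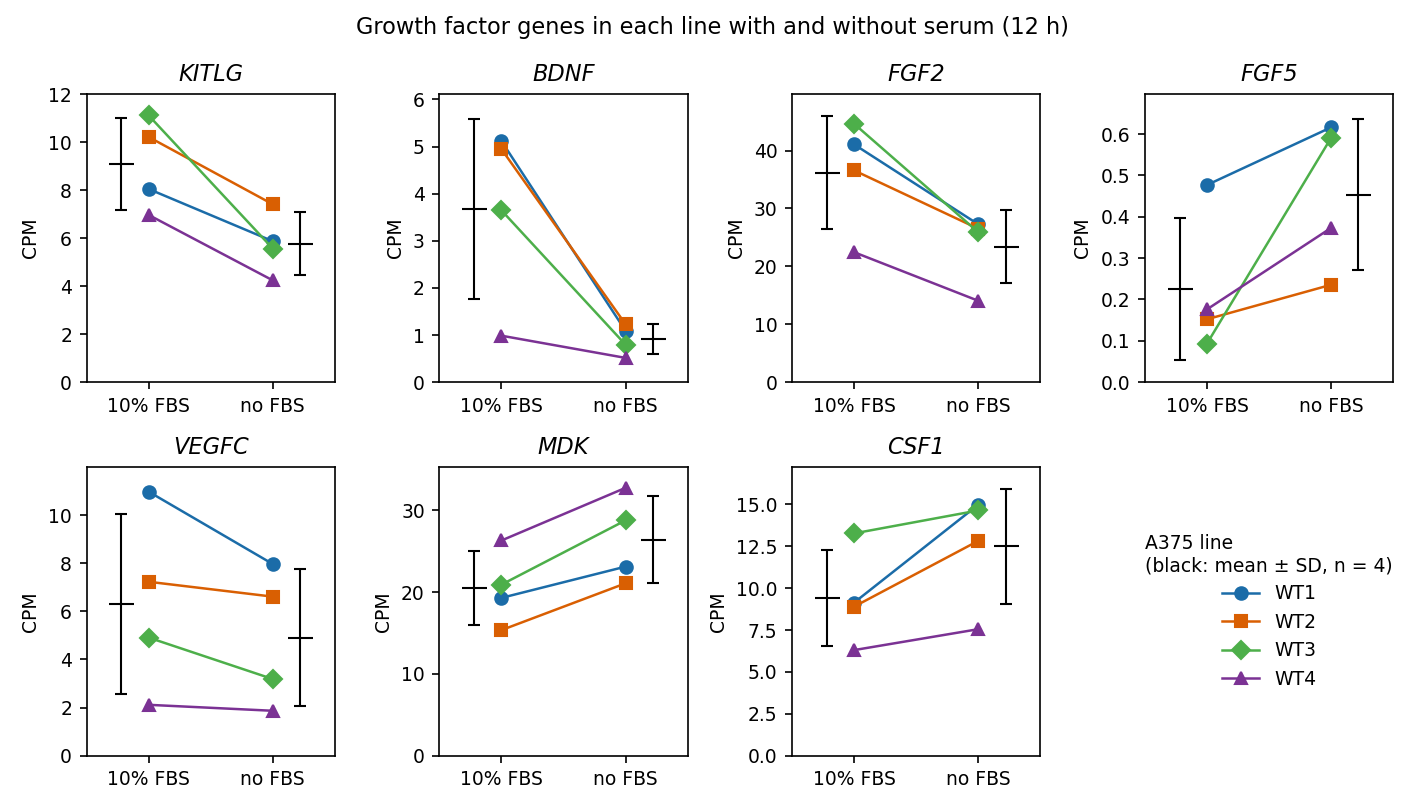
CPM of each growth factor gene (vertical axis, a separate linear scale per gene) with 10% FBS and with no FBS after 12 h; colored points joined by a line are the 2 libraries of a line, and black bars are the mean ± SD of 4 lines. Every line of a gene slopes the same way, down for *KITLG*, *BDNF*, *FGF2* and *VEGFC* and up for *FGF5*, *MDK* and *CSF1*, while the ranges of the 2 conditions overlap for all 7 genes.

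Whether the cells changed the transcripts of their own growth factors when serum was removed was asked by comparing serum-free with serum libraries. Each of the 7 genes differed in the same direction in 4 of 4 lines, as did 55.4% of the 17671 genes tested: *KITLG*, *BDNF*, *FGF2* and *VEGFC* were lower without serum, and *FGF5*, *MDK* and *CSF1* were higher. In each of the 7 genes the ranges of the 2 conditions overlapped, whereas they were separate in 27.5% of the genes tested. Without regard to line, edgeR's quasi-likelihood test, with p-values adjusted over the 17671 genes tested by the Benjamini-Hochberg method, called 2 of the 7, *KITLG* and *BDNF*, both lower, where 25.1% of all genes were called (11.1% higher and 14.0% lower). With the line as a replicate block, which compares the conditions within lines, 6 of 7 were called, 4 lower and 2 higher, where 45.7% of all genes were called (23.2% higher and 22.4% lower). The median log2 fold change of the 7 genes, which differed in both directions, was the value of *VEGFC* itself. It was -0.37 without the block and -0.35 with it, beside 0.033 and 0.035 over all genes tested. Upper-quartile scaling turned the split of all calls from 1957 higher and 2477 lower to 2508 higher and 1843 lower. Values are bulk counts, so fewer cells with a transcript and less transcript per cell cannot be told apart.

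*KITLG* (ENSG00000049130, chromosome 12 of GRCh38, 88492793 to 88580471) fell without serum. It was at 8.06, 10.2, 11.1 and 6.97 CPM in WT1 to WT4 with serum, and at 5.88, 7.42, 5.57 and 4.25 CPM in the same order without serum. Every line was lower without serum, but WT2 without serum was above WT4 with serum, so the groups overlapped. The means were 9.09 ± 1.91 and 5.78 ± 1.30 CPM (SD, n = 4), and the lines differed on the log2 scale by -0.45, -0.46, -0.98 and -0.70. The log2 fold change was -0.65 (SE 0.20, adjusted p = 0.0400 in edgeR's quasi-likelihood test, Benjamini-Hochberg adjusted), a level 0.635 times that with serum, and the same test with the replicate block gave adjusted p = 4.38e-04. With GC correction added to the block it was -0.42 (edgeR's adjusted p = 0.00684). Without the block the call was kept in 3 of 12 fits with 1 library or line left out, those without WT4 with serum, without WT2 without serum and without the line WT4. It was lost without any other library (adjusted p = 0.0614 without WT1, 0.101 without WT2 and 0.112 without WT3 with serum, and 0.0778 without WT1, 0.0848 without WT3 and 0.0864 without WT4 in serum-free medium). It was also lost without the line WT1 (0.117), WT2 (0.0682) or WT3 (0.191) and under upper-quartile scaling (0.0576), all in edgeR. With the block it was kept in each of the 4 fits without a line.

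Transcripts of *KIT*, the receptor of stem cell factor, were at the floor of detection. A total of 1 read was counted in the 8 libraries, in WT1 without serum, and the other 7 libraries were at 0. A count of 3 reads, the limit that a count of 0 allows, corresponds to 0.0393 to 0.106 CPM depending on the library, with counting error only. *KIT* could therefore not be tested, while its ligand gene was at 198 to 672 reads per library with serum and 217 to 567 without.

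*CSF1* (ENSG00000184371, chromosome 1, 109910506 to 109930992) was at 9.14, 8.90, 13.3 and 6.30 CPM in WT1 to WT4 with serum, and at 15.0, 12.8, 14.6 and 7.55 CPM without. It was higher without serum in every line, and most so in WT1 (0.71 on the log2 scale) and WT2 (0.52), against 0.14 in WT3 and 0.26 in WT4. The means were 9.41 ± 2.88 and 12.5 ± 3.43 CPM. The log2 fold change was 0.41 (SE 0.26, adjusted p = 0.288 in edgeR's quasi-likelihood test, Benjamini-Hochberg adjusted) without the block and 0.41 (SE 0.11, edgeR's adjusted p = 0.00553) in the blocked fit. Without the block it ran from 0.26 without WT4 with serum to 0.62 without WT3 with serum. The blocked call was lost without WT1 (edgeR's adjusted p = 0.0580) and with a correction for GC content (0.24, edgeR's adjusted p = 0.0609). *CSF1R*, its receptor gene, was at 0.210 to 0.426 CPM with serum and 0.327 to 0.604 without, with a log2 fold change of 0.57 (adjusted p = 0.283, and 0.324 with the replicate block, in edgeR). *IL34*, which encodes the other ligand of CSF1R, had too few reads to be tested.

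*BDNF* (ENSG00000176697, chromosome 11, 27654893 to 27722030) had the largest difference of the 7 genes on the log2 scale, in either fit. It was at 5.11, 4.95, 3.65 and 0.986 CPM in WT1 to WT4 with serum, and at 1.09, 1.23, 0.796 and 0.515 CPM without. Without serum, WT1, WT2 and WT3 were near the level that WT4 had with serum, and that WT4 library was the only serum library within the serum-free range. The log2 differences were -2.13, -1.92, -2.06 and -0.82 in WT1 to WT4, and in reads the gene went from 193, 325, 156 and 28 to 46, 94, 31 and 29. The log2 fold change was -2.02 (SE 0.48, adjusted p = 0.0159 in edgeR's quasi-likelihood test, Benjamini-Hochberg adjusted), a level 0.247 times that with serum, and -1.92 (SE 0.22, edgeR's adjusted p = 7.09e-06) in the blocked fit. Without the block the call was lost without the line WT1 (0.0932), WT2 (0.0625) or WT3 (0.0949) and kept in the other 9 of 12 such fits in edgeR. Whether WT4 differed from the others in its response was not tested.

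The antisense gene *BDNF-AS* covers 12.8% of the merged exon bases of *BDNF*. It had 16, 15, 8 and 0 reads in WT1 to WT4 with serum and 5, 1, 2 and 2 without, and was not tested. Strand was not stated for the counting, so reads in the shared part cannot be assigned, and their part in the counts of *BDNF* was not tested.

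Among the neurotrophin receptors, *NTRK2*, which encodes TRKB, was low and lower still without serum. It was at 1.06, 1.66, 0.514 and 0.740 CPM in WT1 to WT4 with serum and at 0.379, 0.903, 0.334 and 0.249 CPM without, lower in every line with overlapping groups. Its log2 fold change was -1.07 (edgeR's adjusted p = 0.131), and -1.11 (edgeR's adjusted p = 0.00845) in the blocked fit. Without the block it was -0.69 without WT2 with serum and passed at -1.65 without WT2 in serum-free medium (edgeR's adjusted p = 0.0348). *NGFR*, which encodes p75, was at 22.5 ± 14.6 RPKM with serum and 25.1 ± 18.4 without, on average above each of the 7 growth factor genes. Its large spread was between lines: WT2 had 174 CPM with serum and WT4 32.9, and the line effect passed edgeR's quasi-likelihood test (range 2.72 on the log2 scale, adjusted p = 1.73e-06). No effect of serum was detected on *NGFR* (log2 fold change 0.15, edgeR's adjusted p = 0.900, and 0.785 with the replicate block), and the sign turned under several alternatives, with GC correction and block to -0.20 (edgeR's adjusted p = 0.0250). Other genes overlap 27.2% of its exon bases. *SORT1*, whose product sortilin binds proneurotrophins, rose from 53.1 ± 7.38 to 70.5 ± 7.66 CPM (log2 fold change 0.41, edgeR's adjusted p = 0.0257), a call kept in 4 of 12 fits with 1 library or line left out (adjusted p up to 0.104 in edgeR). Of the other neurotrophins, *NTF3* was listed at 0 in every library, and *NTF4* had too few reads to be tested.

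*FGF2* (ENSG00000138685, chromosome 4, 122826682 to 122898236), a factor that binds heparan sulfate and FGF receptors, was lower without serum in every line. It was at 41.1, 36.6, 44.6 and 22.4 CPM in WT1 to WT4 with serum, and at 27.3, 26.5, 25.9 and 14.1 CPM without. WT1, WT2 and WT3 with serum were above every serum-free library, and WT4 with serum was below 3 of them. The lines differed by -0.59, -0.46, -0.78 and -0.67 on the log2 scale, an SD of 0.13 between lines, while the level itself ranged by 0.94 between lines. Its log2 fold change was -0.63 (SE 0.26, adjusted p = 0.116 in edgeR's quasi-likelihood test, Benjamini-Hochberg adjusted) without the block and -0.63 (SE 0.07, edgeR's adjusted p = 8.42e-06) in the blocked fit. Without the block the gene passed once WT4 was left out (edgeR's adjusted p = 9.97e-04) or its serum library alone (0.0314), and in DESeq2 over all libraries (adjusted p = 0.0344). With the block it passed without each line in turn, and with GC correction added it was -0.40 (edgeR's adjusted p = 1.11e-04).

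*NUDT6*, a gene on the opposite strand, shares 11.8% of the exon bases of *FGF2*. It was at 3.85 ± 0.471 CPM with serum and 4.12 ± 0.526 without, and no effect of serum was detected (log2 fold change 0.10, edgeR's adjusted p = 0.691). In WT1 to WT4 the log2 differences were 0.20, 0.32, 0.014 and -0.15.

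*FGF5* (ENSG00000138675, chromosome 4, 80266588 to 80291017), known as a signal that ends hair growth, was the lowest of the 7. It had 18, 10, 4 and 5 reads in WT1 to WT4 with serum and 26, 18, 23 and 21 without, or 0.477, 0.152, 0.0935 and 0.176 CPM against 0.616, 0.236, 0.591 and 0.373 CPM. Every line was higher without serum, and WT1 with serum lay inside the serum-free range. On the log2 scale the fold change was 1.01 (SE 0.54, adjusted p = 0.199 in edgeR's quasi-likelihood test, Benjamini-Hochberg adjusted) and 1.06 (SE 0.46, edgeR's adjusted p = 0.0736) in the blocked fit, so it did not pass in either. Its log2 differences within lines ran from 0.31 to 1.84. They are made smaller by the 0.1 CPM added to each level, which is above the 0.0935 CPM of WT3 with serum. Without the serum library of WT1 the fold change was 1.66 (edgeR's adjusted p = 0.0560) and without the line WT3 0.59 (0.558). It passed with the block and GC correction together (1.30, edgeR's adjusted p = 0.0298).

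Of the FGF receptor genes, *FGFR1* was at 1.61 to 3.004 RPKM with serum and 1.94 to 5.38 without, *FGFR4* at 1.62 to 2.83 and 1.64 to 3.03, *FGFR3* at 0.810 to 1.37 and 1.19 to 1.53, and *FGFR2* at 0.00749 to 0.0340 and 0.0198 to 0.0410. *FGFR1*, *FGFR2* and *FGFR3* were higher without serum in 4 of 4 lines, where 55.4% of all genes tested had the same direction in 4 of 4 lines. Of the ligand genes, *FGF2* was lower in every line, and *FGF5* and *FGF1* were higher in every line. Neither *FGFR1* nor *FGFR3* passed without the block (log2 fold changes 0.64 and 0.49, edgeR's adjusted p = 0.209 and 0.0991), but *FGFR3* then passed in limma's voom (0.58, adjusted p = 0.0390) and in edgeR without WT4 or without its serum library (smallest adjusted p = 0.00715). With the replicate block both passed (0.57 and 0.52, edgeR's adjusted p = 7.59e-05 and 0.00699), *FGFR3* no longer with GC correction added (edgeR's adjusted p = 0.0662) or without WT2 (0.0792). *FGFR4* averaged 11.2 CPM in both conditions (edgeR's adjusted p = 0.995) and was called lower with the block and GC correction together (-0.25, edgeR's adjusted p = 0.0371), and *FGFR2* did not pass in either fit (edgeR's adjusted p = 0.510 and 0.242).

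*VEGFC* (ENSG00000150630, chromosome 4, 176683538 to 176792922) differed more between lines than between conditions. It was at 10.97, 7.23, 4.91 and 2.11 CPM in WT1 to WT4 with serum, and at 7.97, 6.61, 3.19 and 1.87 CPM in the same order without. The order WT1, WT2, WT3, WT4 held in both conditions, and every line was lower without serum, by -0.46, -0.13, -0.61 and -0.17 on the log2 scale. Over all libraries it was at -0.37 (SE 0.57, adjusted p = 0.684 in edgeR's quasi-likelihood test, Benjamini-Hochberg adjusted) and -0.35 (SE 0.13, edgeR's adjusted p = 0.0379) in the blocked fit, which was lost without WT1 (edgeR's adjusted p = 0.179) or WT3 (0.158). Without the block the sign turned when WT1 with serum was left out, to 0.034.

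*FLT4*, the gene of the VEGFC receptor VEGFR3, had 15 reads over the 8 libraries with 3 libraries at 0, and was not tested. *KDR*, the gene of VEGFR2, which also binds processed VEGFC, was at 1.97 to 6.44 RPKM with serum and 2.80 to 7.17 without, and *NRP2*, its co-receptor, at 4.26 to 9.53 and 5.58 to 11.3 RPKM. Both were higher without serum in every line and passed only with the replicate block (log2 fold changes 0.35 and 0.36, edgeR's adjusted p = 0.00800 and 9.48e-05, against 0.681 and 0.439 without it).

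*MDK* (ENSG00000110492, chromosome 11, 46380784 to 46383837) was at 19.3, 15.4, 20.9 and 26.3 CPM in WT1 to WT4 with serum, and at 23.1, 21.1, 28.8 and 32.7 CPM without. The order WT4, WT3, WT1, WT2 was the same in both conditions, and each line was higher without serum by 0.26 to 0.46 on the log2 scale. The means were 20.5 ± 4.54 and 26.4 ± 5.33 CPM. On the log2 scale the fold change was 0.37 (SE 0.18, adjusted p = 0.167 in edgeR's quasi-likelihood test, Benjamini-Hochberg adjusted) and 0.37 (SE 0.07, edgeR's adjusted p = 6.97e-04) in the blocked fit, where it passed without each line in turn. With GC correction added to the block it was 0.16 (edgeR's adjusted p = 0.0754). *MDK* and *CSF1*, which passed upward with the block, had transcripts of 62.0% and 59.2% GC. *FGF5*, also higher without serum in every line, had 36.6% GC. *KITLG*, *BDNF*, *FGF2* and *VEGFC*, which were lower, had 37.3% to 54.3%. Whether GC content had a part in these differences was not tested.

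Of the 14 principal receptor genes of the 7 factors, 12 had enough reads to be tested, and 2 passed without the block, *PTPRZ1* and *LRP1*, where 25.1% of all genes were called. With the replicate block 6 were called higher and 1 lower, where 45.7% of all genes were called. Both *PTPRZ1* and *LRP1* encode receptors of midkine. *PTPRZ1*, which encodes a receptor phosphatase bound by midkine and pleiotrophin, rose from 2.78, 5.49, 5.94 and 2.82 CPM in WT1 to WT4 with serum to 11.7, 19.6, 21.6 and 18.0 CPM without. Every serum-free library was above every serum library. Its log2 fold change was 2.05 (SE 0.30, edgeR's adjusted p = 0.00260), a level 4.13 times that with serum. *LRP1*, the gene of an endocytic receptor with many ligands, rose from 56.3, 77.8, 81.8 and 64.7 CPM to 108, 102, 122 and 99.3 CPM, again without overlap (log2 fold change 0.62, SE 0.12, edgeR's adjusted p = 0.00629). Both calls were kept in 12 of 12 fits with 1 library or line left out. *ALK*, a receptor kinase also linked to midkine, was at 1.30 ± 0.843 and 1.60 ± 1.10 CPM (edgeR's adjusted p = 0.701), and *PTN*, which encodes pleiotrophin, at 3.58 ± 0.943 and 3.36 ± 1.35 CPM (edgeR's adjusted p = 0.851).

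**Figure D2:**
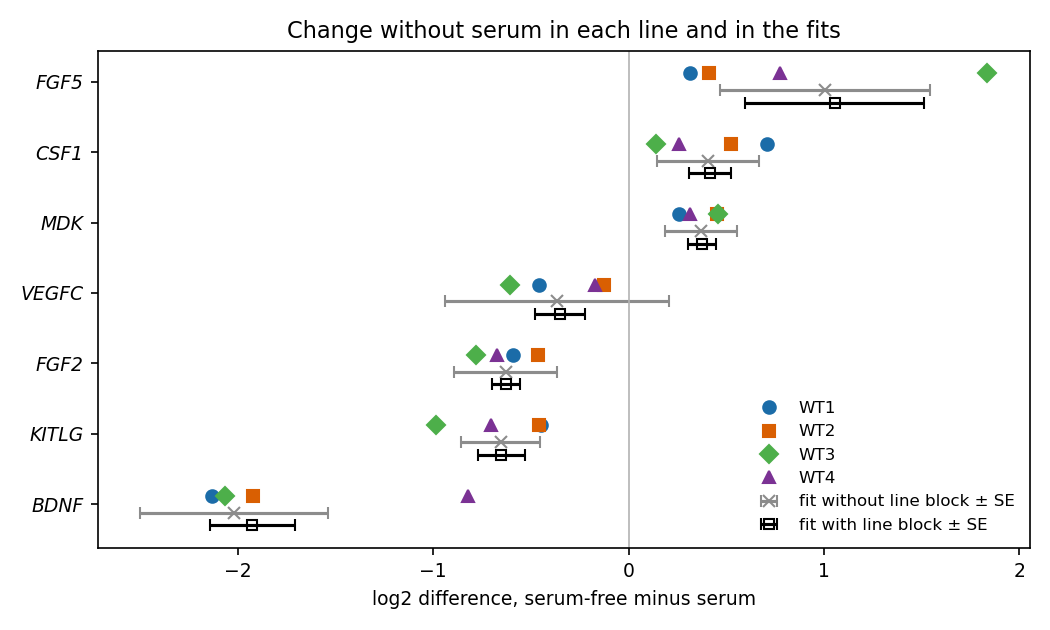
Log2 difference of serum-free minus serum (horizontal axis) for each growth factor gene; colored points are the 4 lines, grey crosses the log2 fold change of the fit without a line block and open squares that of the fit with the block, both with bars of ± 1 SE. All points of a gene lie on the same side of 0, *BDNF* lies farthest to the left with WT4 at -0.82 apart from the other lines, and the bars are narrower with the block for all 7 genes.

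**Figure D3:**
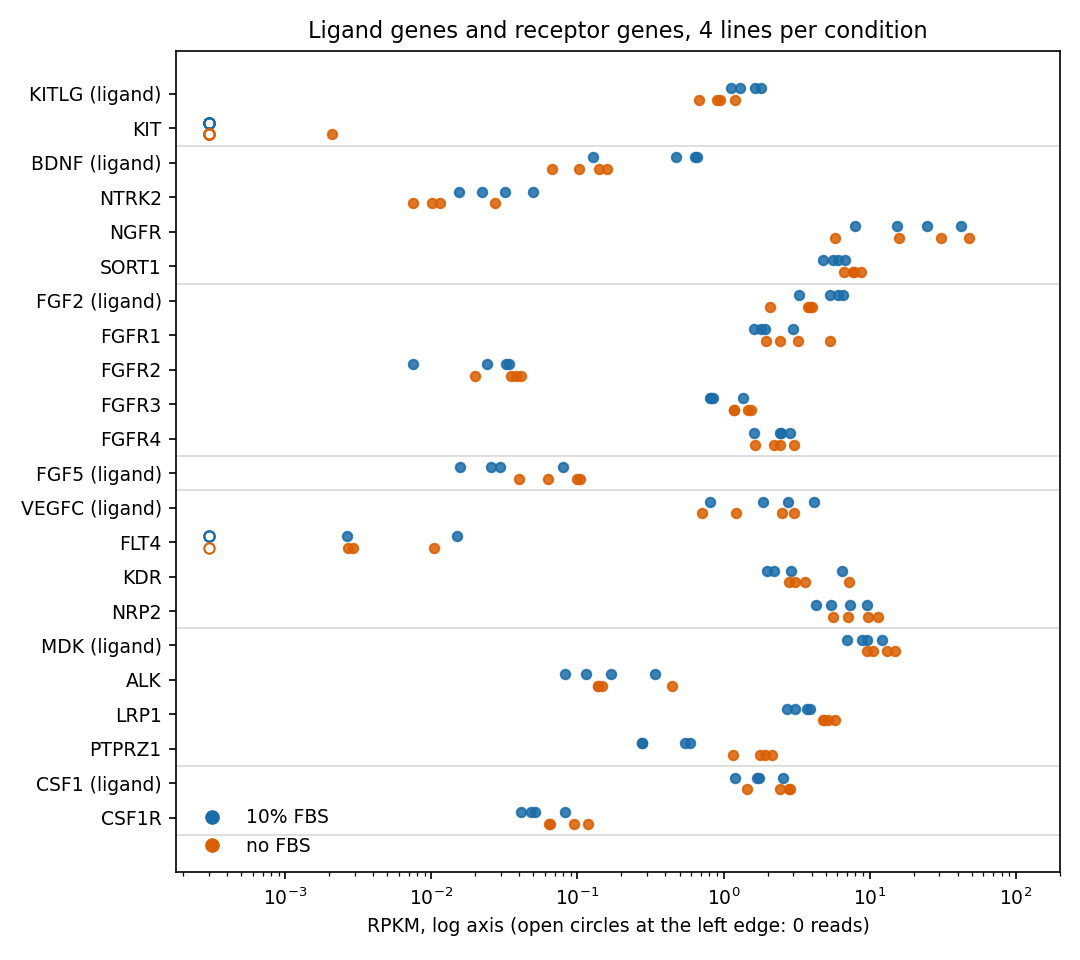
RPKM (horizontal log axis) of each growth factor gene and, under it, the genes of its receptors, with 1 point per line in 10% FBS (blue) and in no FBS (orange); *FGF5* shares the FGF receptors above it, and open circles at the left edge mark libraries with 0 reads. *KIT* and *FLT4* lie at or near 0, *NTRK2*, *FGFR2* and *CSF1R* under 0.2 RPKM, and *NGFR* above the growth factor genes on average.

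The levels of these genes differed between the 4 lines as well. In edgeR's quasi-likelihood test of the line effect with condition in the fit, 6 of 7 passed, all but *FGF5*, where 22.9% of all genes were called. Among the 6 that passed, *VEGFC* had the widest range, 2.22 on the log2 scale (adjusted p = 4.31e-06), followed by *BDNF* (1.80, adjusted p = 0.00321), *CSF1* (1.03, 0.00134), *FGF2* (0.94, 2.98e-05), *MDK* (0.70, 7.23e-04) and *KITLG* (0.68, 0.0338), all by edgeR with Benjamini-Hochberg adjustment. WT4 stood lowest in both conditions for *KITLG*, *BDNF*, *FGF2*, *VEGFC* and *CSF1* and highest in both for *MDK*. For the same 6 genes, averaged over the conditions, the highest line was 4.76 times the lowest for *VEGFC*, 4.13 times for *BDNF*, 2.01 times for *CSF1*, 1.93 times for *FGF2*, 1.62 times for *MDK* and 1.57 times for *KITLG*. The range of *BDNF* between lines was wider with serum, 5.19 times, than without, 2.39 times. When WT4 was left out, 2 of 7 passed, *VEGFC* and *MDK*, where 18.6% of all genes did, and the edgeR adjusted p was 0.246 for *KITLG*, 0.214 for *BDNF*, 0.465 for *FGF2* and 0.0792 for *CSF1*. *KITLG* was also lost without WT2 (edgeR's adjusted p = 0.114).

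**Figure D4:**
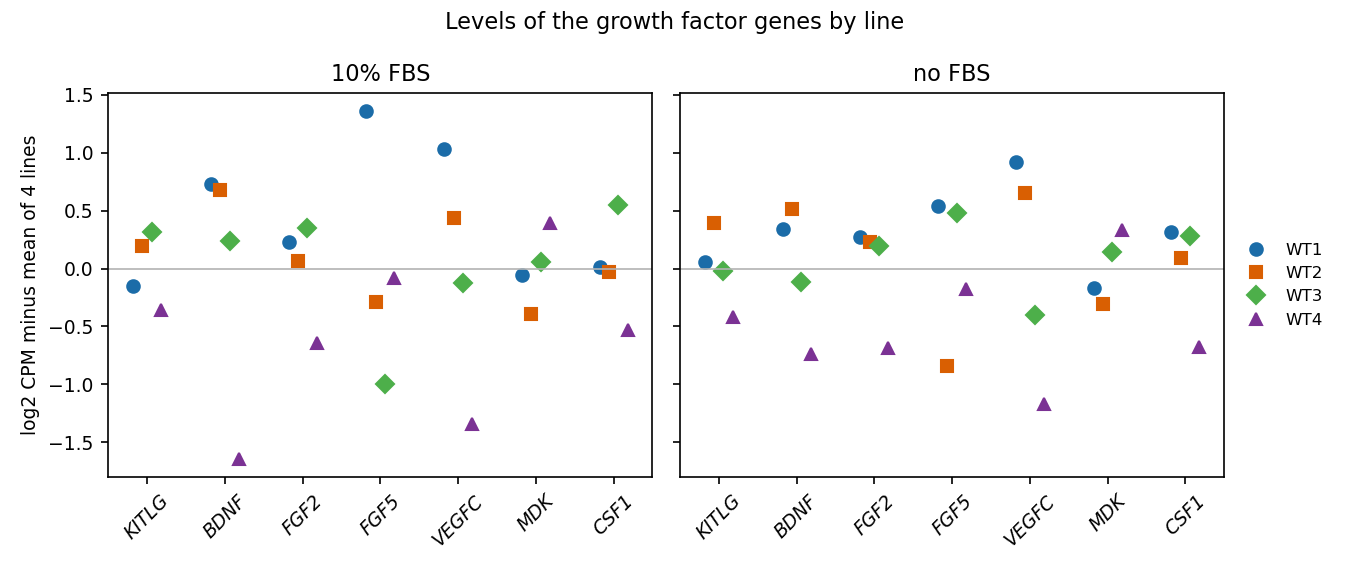
Log2 CPM of each line minus the mean of the 4 lines in the same condition (vertical axis), for each growth factor gene with 10% FBS (left) and with no FBS (right). WT4 is the lowest point for *KITLG*, *BDNF*, *FGF2*, *VEGFC* and *CSF1* and the highest for *MDK* in both panels, and *FGF5*, with 4 to 26 reads per library, shows no common order.

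Other genes of the same signaling systems were followed from lists of related ligands, receptors, processing factors and adaptors. Of 29 other ligand genes, 15 had enough reads to be tested, and 3 were called higher and 1 lower without the block (5 and 2 with it), where 25.1% of all genes were called without the block and 45.7% with it, and the median log2 fold change was 0.22. *VEGFA*, the main angiogenic factor and a relative of *VEGFC*, fell from 69.8 ± 6.49 to 40.4 ± 2.64 CPM (log2 fold change -0.79, SE 0.08, edgeR's adjusted p = 9.14e-04), without overlap and in 12 of 12 fits with 1 library or line left out. *FGF12*, which encodes an intracellular FGF homologue, rose from 5.61 ± 1.45 to 12.5 ± 3.55 CPM (1.16, edgeR's adjusted p = 0.00821) and lost the call only without the line WT3 (0.0566). *FGF1*, which encodes acidic FGF, rose from 3.32 ± 0.739 to 6.93 ± 2.53 CPM (1.07, edgeR's adjusted p = 0.0199), and *ARTN*, a ligand gene of the GDNF family, from 0.782 ± 0.283 to 1.68 ± 0.249 CPM (1.12, edgeR's adjusted p = 0.0178). Both were kept in 6 of 12 such fits (adjusted p up to 0.107 and 0.0902 in edgeR). *FGF1* and *FGF2*, whose products bind the same receptors, differed in opposite directions in all 4 lines.

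Among 29 receptor and co-receptor genes, 26 were tested, and 3 were called, all higher (*PTPRZ1*, *LRP1* and *SORT1*), beside 25.1% of all genes, with a median log2 fold change of 0.31. With the replicate block 10 were called higher and 4 lower, beside 45.7% of all genes. Of 22 genes for processing, release and extracellular binding, 20 were tested, with 1 called higher and 1 lower (4 and 2 with the block), again beside 25.1% of all genes (45.7% with the block). *SULF2*, which trims the heparan sulfate that FGFs bind, rose from 74.5 ± 25.9 to 147 ± 31.8 CPM (log2 fold change 0.98, edgeR's adjusted p = 0.0360), a call lost with no filter on low counts (edgeR's adjusted p = 0.125). *ADAM10*, a sheddase gene, fell from 254 ± 15.9 to 214 ± 12.6 CPM (-0.24, edgeR's adjusted p = 0.0302), a change that was at -0.023 (edgeR's adjusted p = 0.705) with the block and GC correction, and that did not pass under upper-quartile scaling (edgeR's adjusted p = 0.0787). The calls were kept in 5 and 4 of 12 fits with 1 library or line left out, respectively (adjusted p up to 0.166 and 0.144 in edgeR).

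Of 15 adaptor genes downstream of these receptors, 14 were tested, with 2 called higher and 3 lower, where 11.1% of all genes were called higher and 14.0% lower. With the replicate block 4 were called higher and 4 lower, where 23.2% and 22.4% of all genes were. *FRS2*, the docking protein of FGF receptors, fell from 57.4 ± 8.52 to 40.9 ± 3.65 CPM (log2 fold change -0.49, edgeR's adjusted p = 0.0136), *GRB2* from 164 ± 2.21 to 133 ± 3.58 CPM (-0.30, edgeR's adjusted p = 0.00475) and *PTPN11*, which encodes the phosphatase SHP2, from 465 ± 56.2 to 364 ± 25.7 CPM (-0.36, edgeR's adjusted p = 0.0227). The docking protein gene *GAB1* rose from 10.3 ± 0.863 to 14.0 ± 1.05 CPM (0.44, edgeR's adjusted p = 0.0137), and *SHC3*, an adaptor known from neurons, from 0.402 ± 0.135 to 0.923 ± 0.316 CPM (1.19, edgeR's adjusted p = 0.0396). *GRB2* lost its call only without the line WT1 (0.0541), *FRS2* and *GAB1* only without the line WT1, WT2 or WT3 (up to 0.0932 and 0.111), and *PTPN11* and *SHC3* kept theirs in 5 and 2 of 12 fits (up to 0.110 and 0.124), all in edgeR. With the block and GC correction *FRS2* was at -0.25 and *PTPN11* at -0.22, and both passed edgeR. All 14 calls on these 4 lists also passed with the replicate block.

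Across the 8 libraries, *KITLG*, *BDNF* and *FGF2* ran together, with Pearson's r of log2 CPM of 0.88 between *KITLG* and *BDNF*, 0.88 between *KITLG* and *FGF2* and 0.90 between *BDNF* and *FGF2*, while *MDK* ran opposite to *BDNF* at -0.89. *CSF1* showed r between -0.10 and 0.44 with the other 6. These are descriptions over 8 libraries that share 4 lines and 2 conditions. In a search of 11531 protein-coding genes averaging 100 counts or more, or 11532 for *FGF5*, those most like *KITLG* were *TMEM64* (r = 0.987), *ZNF486* (0.977) and *TMEM50A* (0.975), and those most like *BDNF* were *NAP1L1* (0.994), *NAMPT* (0.991) and *SREK1* (0.991). *FGF2* was matched most closely by *LUZP1* (0.998), *QKI* (0.990) and *METTL8* (0.987), and *VEGFC* by *PLEKHF2* (0.995), *TMEM43* (0.993) and *PDLIM5* (0.982). For *MDK* they were *NDRG4* (0.988), *COL16A1* (0.988) and *NXF1* (0.987), for *CSF1* *AASS* (0.956), *BGN* (0.952) and *RP2* (0.951), and for *FGF5*, at few reads, *ZNF790* (0.946), *LRRK1* (0.941) and *KLHL7* (0.941).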

How the data were processed

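The labels gave line and condition. Per the labels, total RNA was depleted of ribosomal RNA, made into NEBNext Ultra libraries and sequenced in read pairs. The authors deposited raw counts per gene, whole numbers without normalization, made with HTSeq on GRCh38. The submitters' processing notes also name cutadapt and TopHat2 2.0.11, while the study's methods name hg19, Cufflinks and another read length, and the strand setting is not given in the sources used here. Reads assigned to several genes (8.23% to 11.5%) or aligned to several places were left out of library sizes.

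In R 4.3.3, edgeR 4.0.16 was used to drop low genes (filterByExpr), scale libraries (TMM) and test (robust glmQLFit and glmQLFTest) at an adjusted p of 0.05. The main fit held condition alone and the alternative the line as a replicate block. The lines pair the libraries, since both libraries of a number come from the same line (correlation of deviations from condition means 0.40 to 0.60 within lines, at most 0.13 between lines). Lines were compared by an F-test with condition in the fit. CPM values are TMM-scaled, log2 differences within lines add 0.1 CPM, and other log2 values use a prior count of 2. RPKM used merged exon lengths from GENCODE on GRCh37, whereas the counts are on GRCh38. Symbols were matched for 55604 of 58051 genes and positions taken from RefSeq by symbol. Methods were tested on simulated data.

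The 7 genes and all lists were chosen with earlier results of these data known. Named are the 7, their principal receptors, antisense genes, the called genes of each list (at most 5 per direction) and the 3 genes most alike. The other ligands *NTF3*, *NTF4*, *IL34* and *PTN* were named after their values were seen. Alternatives were DESeq2 1.42.0, limma 3.58.1 with voom, RLE and upper-quartile scaling, other filters, GC correction (a spline with 5 degrees of freedom) and fits without a library or line. Each library is 1 culture, so p-values without the block include differences between lines.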

Additional observations from a re-analysis of the deposited data

Results flagged for a closer look

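Among 64 sets of 4 values searched, 5 held a library whose gap to the nearest other took more of the range of its condition than Dixon's 95% critical value allows for 4 values, where chance gives about 1 in 20, or 3.20. Of the growth factor genes, this was *FGF2*, at 14.1 CPM in WT4 without serum against 25.9 to 27.3 CPM in the other lines. The others were *FGFR3* in WT4 with serum (6.62 CPM against 3.93 to 4.09), *ALK* in WT4 without serum (3.25 against 1.02 to 1.09), *FRS2* in WT4 with serum (44.7 against 60.4 to 62.4) and *GAB1* in WT1 without serum (15.6 against 13.3 to 13.6). The library was that of WT4 in 4 of the 5.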

How the results depend on the processing

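Of the 7 growth factor genes, 2 were called without serum, and 4434 of all genes (25.1%). With the line as a replicate block 6 and 8067 (45.7%) were called, with the block and GC correction 5 and 8167 (46.2%), and with upper-quartile scaling 1 of the 7 and 4351 of all genes (24.6%). Fits with 1 library or line left out gave 0 to 3 of the 7 and 1589 to 6128 genes, 8.78% to 33.5% of those tested. Blocked fits without a line were added after seeing the data. They called 4 of the 7 without WT1 (34.2% of all genes tested) and 6 without WT2 (37.1%). Without WT3 they called 5 (34.3%), and without WT4 6, with 8938 genes (50.3%). Without the serum libraries of WT1 and WT2, those with the most reads aligned to several places, a choice also made after seeing the data, 0 of the 7 passed edgeR and 1098 genes (5.88% of those tested) did. *KITLG* was then at -0.65 (edgeR's adjusted p = 0.166), *BDNF* at -1.36 (0.153) and *VEGFC* at 0.47 (0.708). Between lines 6 of the 7 were called (22.9% of all genes), and 2 to 6 without a line (15.6% to 18.6% of all genes), with 2 called without WT4 (18.6%). The direction of each of the 7 held in every fit except that of *VEGFC*, which ran from -0.70 to 0.034 in fits without a library or line, with 0.034 without WT1 with serum. DESeq2, voom, RLE scaling, no filter and protein-coding genes alone gave 2 or 3 of the 7, beside 11.3% (no filter) to 30.6% (protein-coding genes) of all genes tested. With at least 10 counts in every library *FGF5* was not tested.

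Among the other named genes the sign turned for *NGFR*, *FGFR4*, *KDR*, *ALK*, *NRP2* and *NUDT6*. *NGFR* was at -0.20 (passing edgeR's test) with the block and GC correction, -0.017 with voom, -0.13 without WT4 with serum, -0.37 without WT2 without serum, and -0.061 and -0.021 in blocked fits without WT1 or WT2. *FGFR4* was at 0.065 with upper-quartile scaling, 0.013 with at least 10 counts, 0.021 with protein-coding genes, 0.015 to 0.14 in fits without a library or a line (0.024, 0.10, 0.015, 0.022, 0.14 and 0.050) and 0.044 in the blocked fit without WT1. *KDR* was at -0.10 without WT2 without serum and *ALK* at -0.30 without WT4 without serum. Without the serum libraries of WT1 and WT2, *ALK* was at -0.047, *NRP2* at -0.0063 and *NUDT6* at -0.032. Over all alternatives *FGFR4* reached -0.25, with the block and GC correction, and over fits without libraries or lines the other ends were 1.09 for *NGFR*, -0.18 for *FGFR4*, 0.998 for *KDR*, 0.57 for *NRP2*, 0.81 for *ALK* and 0.18 for *NUDT6*. Few reads limit *FGF5*, at 4 to 26 per library, and *KIT* and *FLT4*, which were not tested.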
